A study of Mus musculus with 9 samples.

Results

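The transcriptome of the sensory epithelium of the mouse utricle was compared between embryonic day 17.5 (E17.5) and postnatal day 9 (P9). The comparison used 3 E17.5 and 3 P9 libraries of the 9 in the series and all 10102 genes of the deposited expression table. Both groups came from Swiss Webster mice, an outbred stock, and the labels give age as their single difference, with no transgene, agent or surgery. The epithelium was separated from the rest of the organ before total RNA was taken. Nothing in the labels ties the libraries of an age to separate animals, litters or pools, so the spread behind each p-value may be technical. Levels are RPKM values as computed by the authors, in which reads are scaled for gene length and library size, so levels of different genes can be set side by side.

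The utricle of the inner ear senses gravity and linear movement of the head. Its epithelium holds hair cells, whose bundle of actin-filled stereocilia stands beside a microtubule-based kinocilium, and supporting cells that surround them and secrete the matrix above. The bundles are deflected by a gelatinous membrane loaded with calcium carbonate crystals, the otoconia, and neighbouring epithelium sets the high potassium of the fluid that bathes them. In the mouse, cells are still being added before birth, and type I and type II hair cells, their synapses and their ion currents mature in the first postnatal weeks.

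Fold changes are on the log2(RPKM + 1) scale, on which the change of weakly expressed genes comes out too small, and are given as P9 minus E17.5 with the standard error of the limma fit. A gene was called when its Benjamini-Hochberg adjusted p over the 10102 genes was under 0.05. Of all genes, 3116 were called higher at P9, which is 30.8%, and 3692 lower, which is 36.5%, so 67.4% were called in either direction. Changes of at least 2-fold were called for 945 genes that were higher (9.35%) and 773 that were lower (7.65%). These shares are the background against which each family below is read, and the median log2 fold change of all genes was -0.06. All 3 P9 libraries lay above all 3 E17.5 libraries for 32.9% of genes and below them for 39.5%, so a lack of overlap was common. Every gene of the table reached 5 RPKM in at least 1 library. A member that was low at E17.5 could therefore be in the table because it was high later, and counts over low genes carry this selection. Where it matters, counts are also given among the 6472 genes whose mean over the 6 libraries reached 10 RPKM, fitted anew, of which 31.3% were called higher and 35.3% lower.

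The 6 libraries held 53365510 to 64417934 alignments each. Across genes, Pearson's r between libraries was 0.977 to 0.989 within an age and 0.81 to 0.827 between the ages, as a description, since genes are not replicates. Mitochondrially encoded genes took 14.4, 14.7 and 13.2% of summed RPKM in the E17.5 libraries and 11.6, 15.8 and 11.3% in the P9 libraries, with P9 replicate 2 the highest of the 6. A pair of entries named only by a clone, AC099934.1 and AC157822.1, differed far more within an age than between ages. AC157822.1 had 347, 8.35 and 3425 RPKM in the E17.5 libraries against 14.9, 491 and 16.5 RPKM in the P9 libraries. Such entries, and the mitochondrially encoded genes, were left out of the ranking of abundant genes. No source used here says whether reads were counted by strand, so reads of a gene and of an overlapping gene on the other strand may be mixed. By GENCODE vM21, 64 of the 278 genes named have exons over those of an opposite-strand gene, and for 22 of them that gene is in the table. These are Dbp with Sphk2, Dnahc11 with Cdca7l, Dnaic1 with Enho, Fam38a with Ctu2, Fdft1 with Ctsb and Rpl23a with Tlcd1, and pairs named where they occur. The others include Fxyd3, Slc6a9, Kcnma1, Meg3 and H3f3a, with longest shared stretches of 1844, 1258, 1016, 802 and 638 bases. Genes outside the table may add reads to these too.

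Promoter sequences of motile cilium and metallothionein genes are shown first, because the values of both families are described below. They are the 250 bases before the annotated start in RefSeq (GRCm38.p6, a later build than the mm8 of the submitters' processing notes), written 5′ to 3′ on the strand of the gene. Among motile cilium genes, capitals mark the letters GTTGCC on either strand, the half-site of the RFX factors that are known to switch on ciliary genes. 1110017D15Rik lies at chr4:41507765-41508014, Fam183b at chr11:58801961-58802210 and Tekt1 at chr11:72361883-72362132, all on the minus strand. Tekt1 encodes a tektin, a filament protein of the wall of ciliary microtubules.
1110017D15Rik: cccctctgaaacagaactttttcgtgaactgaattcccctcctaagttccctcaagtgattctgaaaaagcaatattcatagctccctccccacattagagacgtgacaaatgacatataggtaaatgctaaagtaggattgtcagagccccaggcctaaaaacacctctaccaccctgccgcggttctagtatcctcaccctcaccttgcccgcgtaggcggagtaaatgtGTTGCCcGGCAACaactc
Fam183b: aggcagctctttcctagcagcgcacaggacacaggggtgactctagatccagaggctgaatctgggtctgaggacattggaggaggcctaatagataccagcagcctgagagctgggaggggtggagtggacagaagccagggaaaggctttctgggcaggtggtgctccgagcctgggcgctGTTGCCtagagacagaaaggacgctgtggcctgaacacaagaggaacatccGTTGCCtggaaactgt
Tekt1: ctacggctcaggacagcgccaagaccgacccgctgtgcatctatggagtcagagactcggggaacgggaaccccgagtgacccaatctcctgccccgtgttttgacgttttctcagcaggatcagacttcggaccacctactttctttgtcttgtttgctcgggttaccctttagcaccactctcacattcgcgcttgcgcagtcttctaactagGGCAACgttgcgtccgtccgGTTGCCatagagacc
In the metallothionein genes, capitals mark TGCACNC or TGCGCNC on either strand, the core of the metal response element. Mt1 lies at chr8:94178839-94179088 and Mt2 at chr8:94172368-94172617, both on the plus strand.
Mt1: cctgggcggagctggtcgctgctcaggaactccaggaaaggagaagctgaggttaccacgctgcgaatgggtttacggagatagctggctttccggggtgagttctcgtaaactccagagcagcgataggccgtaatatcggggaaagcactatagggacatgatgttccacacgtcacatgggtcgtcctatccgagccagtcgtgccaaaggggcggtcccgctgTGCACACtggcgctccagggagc
Mt2: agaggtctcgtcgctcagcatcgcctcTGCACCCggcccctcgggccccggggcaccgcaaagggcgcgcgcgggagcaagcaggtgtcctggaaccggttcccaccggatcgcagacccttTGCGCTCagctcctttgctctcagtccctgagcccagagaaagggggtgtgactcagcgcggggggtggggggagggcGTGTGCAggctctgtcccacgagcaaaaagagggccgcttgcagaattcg
GTTGCC was found for 17 of the 34 motile cilium genes that could be matched to RefSeq by symbol, or 50%. It was found for 7 of 28 matched genes of the primary cilium, or 25%, and for 11.8% of all 27025 genes with a promoter in the table. Of the 17 motile cilium genes with the letters 15 were higher at P9 and 1 was lower, and of the 17 without them 15 were higher. The counts of higher members were thus equal with and without the letters. The lower gene with the letters was the tektin gene Tekt2, with 2 matches in its window, and its sequence is not shown. The metal response core was found for 2 of 3 metallothionein genes and for 23.8% of all genes. A match is a run of letters and no measured binding.

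Other motifs were searched on both strands of the same windows, all chosen after the families' changes were known. The lysosomal CLEAR core TCACGTGA was found for 5 of 37 matched lysosomal genes, or 13.5%, among them the protease gene Ctsd, against 0.907% of all genes. It contains the E-box CACGTG, which is counted separately. For clock genes the E-box was found for 4 of 15 against 6.86% of all genes, and the D-box TTANGTAA for 1 of 15 against 2.44%. An E2F site (TTTCGCGC, TTTGGCGC or TTTCCCGC) was found for 0 of 12 histone and HMG genes and 1 of 29 genes of one-carbon and nucleotide synthesis, against 1.78%. The sterol response element TCACNCCAC was found for 1 of 18 cholesterol genes against 1.22%. The heat shock element was found for 3 of 54 matched heat shock protein and co-chaperone genes, or 5.56%, against 0.514% of all genes. Of the 3 genes with it 1 was higher at P9, and of the 51 without it 25 were higher.

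Several of the most abundant genes at E17.5 were lower at P9. Eef1a1, the elongation factor that brings aminoacyl-tRNA to the ribosome, had 4761, 4741 and 4224 RPKM in the E17.5 libraries against 2086, 1891 and 1990.4 RPKM in the P9 libraries (log2 change -1.20 ± 0.14, adjusted p = 1.5e-05). It was the third most abundant nuclear gene at P9. Actg1, the cytoplasmic gamma actin of the stereocilia and cell cortex, had 2496, 2515 and 2351 RPKM at E17.5 against 1277, 1233 and 968 RPKM at P9 (log2 change -1.09 ± 0.14, adjusted p = 3.27e-05). Oc90, the main matrix protein of otoconia, had 1340.5, 1436 and 1325 RPKM at E17.5 against 92, 93.8 and 87.6 RPKM at P9, 0.0667 times the fetal mean. The groups did not overlap for any of these 3 genes. Tpt1, a translationally controlled protein, went from 2159.9 ± 239 to 1305 ± 109.5 RPKM, and the heparin-binding growth factor gene Mdk from 681 ± 69.7 to 169 ± 26.8 RPKM (log2 change -2.01 ± 0.13, adjusted p = 1.17e-07). Fstl1, a secreted glycoprotein that binds BMPs, went from 288 ± 15.7 to 42.9 ± 3.5 RPKM. Other large losses were those of ribosomal protein genes such as Rps24, Rps26 and Rpl23a, with log2 fold changes of -1.52 ± 0.13, -1.76 ± 0.13 and -1.33 ± 0.14. Eef1a1, Tpt1, the actins and the ribosomal protein genes have processed pseudogenes or near-identical copies, and the counting could split their reads.

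The largest gain in RPKM was that of Spp1, which encodes osteopontin, a secreted matrix protein that marks type I vestibular hair cells. It had 123, 89.4 and 91.7 RPKM in the E17.5 libraries against 2218, 2132 and 1899 RPKM in the P9 libraries, 20.5 times the fetal mean (log2 change 4.36 ± 0.15, adjusted p = 8.81e-10). Cst3, the secreted cysteine protease inhibitor cystatin C, was the most abundant nuclear gene at P9, with 687, 767 and 646 RPKM at E17.5 against 2212, 2142 and 2024 RPKM at P9 (log2 change 1.60 ± 0.13, adjusted p = 8.59e-07). S100a1, a small calcium-binding protein, had 611, 574 and 506 RPKM at E17.5 against 1674, 1393 and 1304 RPKM at P9. Every P9 library was above every E17.5 library for these 3 genes. Sparcl1, a matrix glycoprotein of the SPARC family, went from 273 ± 33.2 to 900.2 ± 125 RPKM, while its relative Sparc went from 1069 ± 97.2 to 1490.1 ± 167 RPKM. Gsn, the actin-severing protein gelsolin, had 76.5, 69.6 and 61.1 RPKM at E17.5 against 559, 537 and 573 RPKM at P9 (log2 change 3.0 ± 0.10, adjusted p = 8.1e-10). That is 8.06 times the fetal mean, with no overlap between the ages. Skp1a, a subunit of SCF ubiquitin ligases, went from 346 ± 25.9 to 966 ± 122 RPKM, and the membrane protein gene Itm2b from 428 ± 34.5 to 980.0 ± 83 RPKM. Fth1, the ferritin heavy chain, went from 454 ± 25.5 to 892 ± 134 RPKM, and Apoe, the lipid carrier apolipoprotein E, from 63.7 ± 13.3 to 501 ± 20.2 RPKM. Ubb, a polyubiquitin gene, had 959.6 ± 89.1 RPKM at E17.5 against 1089 ± 134 RPKM at P9 and was not called (adjusted p = 0.253). It was called higher after rescaling without mitochondrially encoded genes and after quantile normalization.

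Some abundant genes did not pass the test. Gapdh, a glycolytic enzyme often used as a reference gene, had 1362, 1448 and 1236 RPKM at E17.5 against 1442, 1174 and 1216 RPKM at P9 (adjusted p = 0.598). Hsp90ab1, the constitutive form of the chaperone Hsp90, had 996 ± 68.8 RPKM at E17.5 against 1005 ± 71.2 RPKM at P9 (adjusted p = 0.93). Libraries of the ages overlapped for both. Actb, the other common reference gene, went from 1074 ± 47.6 to 462 ± 112 RPKM (log2 change -1.24 ± 0.16, adjusted p = 3.78e-05) and lay lower in all 3 P9 libraries. The keratin genes of simple epithelia, Krt8 and Krt18, had 750.0 ± 102 RPKM at E17.5 against 725 ± 133 RPKM at P9 and 781 ± 120.5 RPKM at E17.5 against 836 ± 146 RPKM at P9, and neither was called, except Krt18 as higher after quantile normalization.

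The 100 most abundant genes at E17.5 held 19.4 ± 0.65% (SD, n = 3) of summed RPKM there, and 79 of them were called lower at P9 against 10 higher. The 100 most abundant at P9 held 17.2 ± 0.99% at that age, with 45 higher and 36 lower. A list chosen for its level at 1 age leans towards genes that were lower at the other, so these counts are a description. The lists shared 56 genes, of which 36 were lower and 10 higher.

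**Figure D1:**
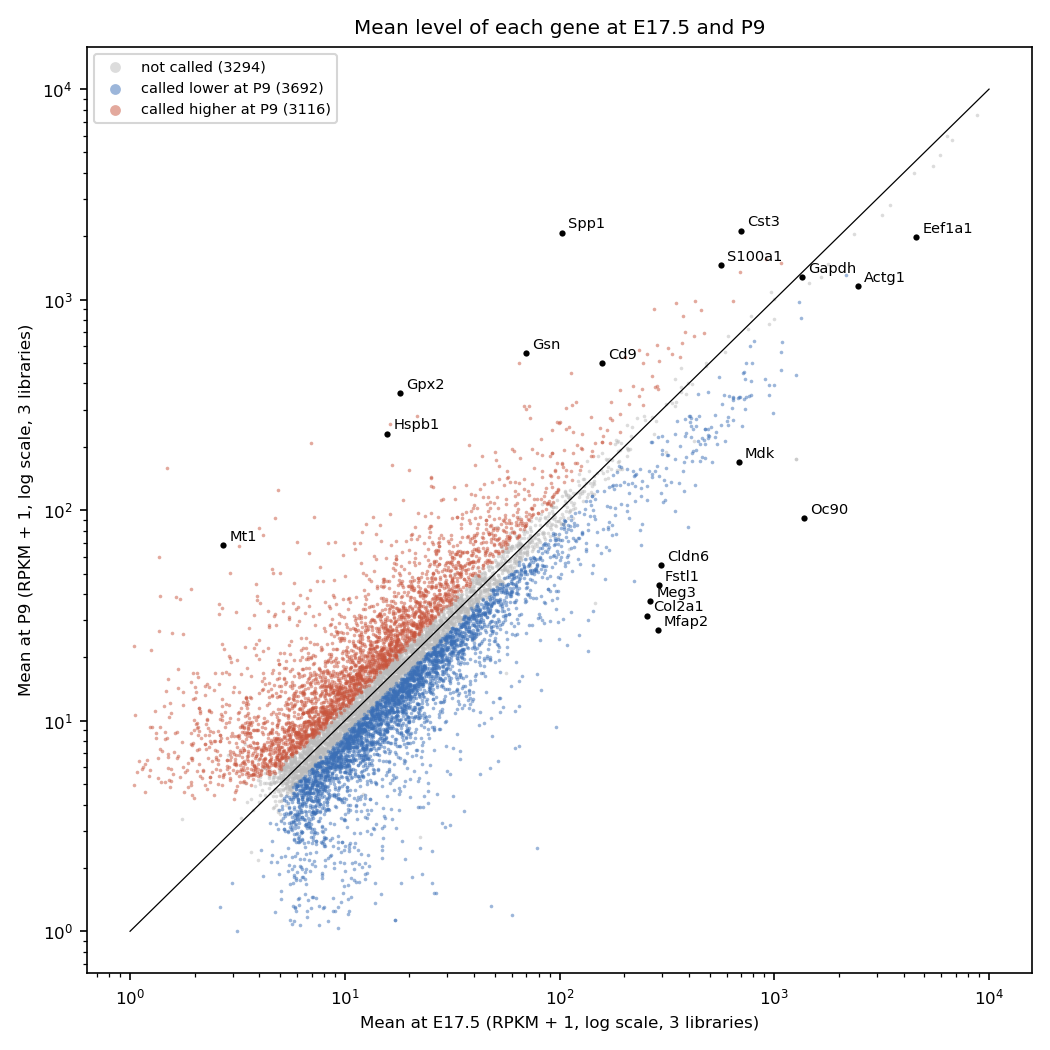
Mean RPKM + 1 at E17.5 (horizontal) and at P9 (vertical) of each gene, both on log scales and over 3 libraries, with called genes in red (higher at P9) and blue (lower) and the line of equal level. Spp1, Gsn and Gpx2 lie far above the line, Oc90, Mfap2 and Col2a1 far below it, and Gapdh close to it.

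**Figure D2:**
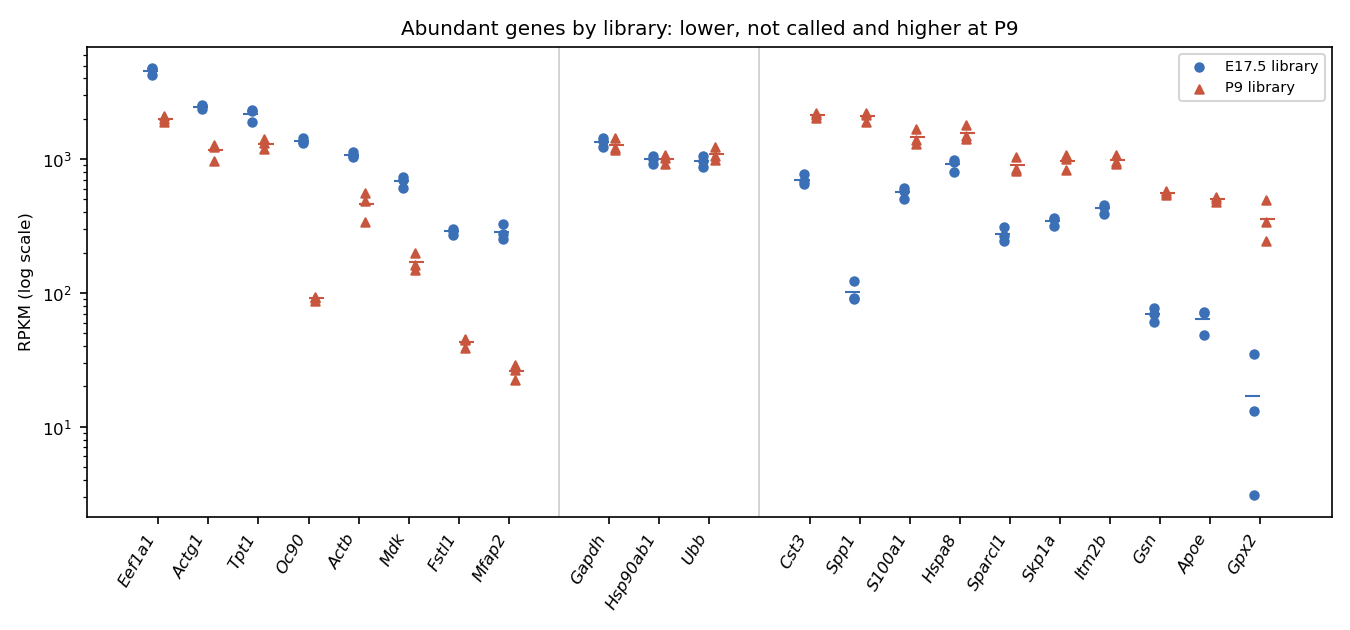
RPKM on a log scale of abundant genes in each E17.5 library (blue circles) and each P9 library (red triangles), with short bars for the means, for genes called lower, not called and called higher from left to right. The ages do not overlap for the genes on the left and right, and do so for Gapdh, Hsp90ab1 and Ubb in the middle.

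Genes of the protein synthesis machinery were mostly lower at P9. Of 43 measured genes of the nucleolus and ribosome assembly, 32 were called lower and 1 higher, with a median log2 fold change of -0.45. Npm1, the nucleolar histone chaperone nucleophosmin, had 331, 316 and 284 RPKM at E17.5 against 115, 114 and 104 RPKM at P9 (log2 change -1.47 ± 0.11, adjusted p = 3.73e-07). The snoRNA-guided enzyme genes Dkc1 and Fbl went from 16.7 ± 0.53 to 5.72 ± 0.643 RPKM and from 48.3 ± 3.42 to 22.8 ± 0.901 RPKM. The member that was higher was Rrp12 (0.55 ± 0.10), whose product helps export the small ribosomal subunit. Translation factors numbered 62, with 41 lower and 3 higher (median -0.42). Their share of summed RPKM was 2.61, 2.64 and 2.53% in the E17.5 libraries and 1.62, 1.52 and 1.66% in the P9 libraries, with no overlap. Eef2, which moves the ribosome along the message, went from 711 ± 66.1 to 447 ± 11.6 RPKM, and Eif4a1, the helicase of cap-dependent initiation, from 289 ± 20.8 to 144 ± 16.8 RPKM. Eef1a2, the isoform of the elongation factor found in muscle and neurons, was lower as well, from 18.1 ± 2.71 to 1.2 ± 0.323 RPKM (log2 change -3.11 ± 0.13, adjusted p = 2.93e-09). Aminoacyl-tRNA synthetase genes were lower in 21 of 31 cases and higher in 1, Kars (0.47 ± 0.09).

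The same direction was seen in RNA processing and nucleotide supply. Of 69 splicing factor genes, 51 were lower and 4 higher (median -0.43). Hnrnpa1, which represses splice sites, had 443, 435 and 396 RPKM at E17.5 against 132, 141 and 118 RPKM at P9 (log2 change -1.70 ± 0.11, adjusted p = 1.1e-07), with every P9 library below every E17.5 library. Hnrnpd, Hnrnpa3 and Ptbp1 had log2 fold changes of -1.39 ± 0.10, -1.12 ± 0.11 and -0.52 ± 0.10, that of Ptbp1 being no longer called after quantile normalization. The 4 that were higher included Rbfox3 and Mbnl2, splicing factors of mature neurons and muscle, from 1.09 ± 0.149 to 5.26 ± 0.485 RPKM and from 25.5 ± 2.28 to 61.9 ± 7.31 RPKM. Genes of one-carbon, serine and nucleotide synthesis were lower in 25 of 33 cases and higher in 1 (median -0.66). Rrm1, the large subunit of ribonucleotide reductase, went from 14.7 ± 1.32 to 3.4 ± 0.674 RPKM, and Mthfd2, a mitochondrial folate enzyme of proliferating cells, from 13 ± 2.31 to 3.08 ± 0.0467 RPKM. Psat1, an abundant enzyme of serine synthesis, went from 135 ± 8.46 to 84.8 ± 8.73 RPKM. The exception was Rrm2b, the ribonucleotide reductase subunit of non-dividing cells, which was higher (0.58 ± 0.12).

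Chromatin proteins were mostly lower as well. Of 28 histone and high mobility group genes, 18 were lower and 5 higher, with a median of -0.83. Hmga2 and Hmgb2, architectural proteins of dividing progenitors, went from 12.9 ± 1.21 to 0.688 ± 0.0932 RPKM and from 50.7 ± 3.26 to 5.46 ± 0.929 RPKM. The abundant histone H3.3 genes H3f3a and H3f3b went from 723 ± 40.5 to 454 ± 34.5 RPKM and from 568 ± 59.6 to 318 ± 84.3 RPKM, and both have processed pseudogenes. Hist2h2aa1 and Hist3h2ba were among those that were higher (0.94 ± 0.17 and 0.54 ± 0.13). Zinc finger genes with Zfp symbols, the largest family here with 176 members, were lower in 85 and higher in 26 cases (median -0.22). Zfp57, which keeps imprints methylated, went from 10.7 ± 1.16 to 1.08 ± 0.181 RPKM.

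Families of protein folding and breakdown moved in different directions. The cytosolic chaperonin CCT and prefoldin, which fold actin and tubulin, had 9 of 13 genes lower and 4 not called (median -0.40). Cct2 went from 100.2 ± 8.55 to 66.2 ± 1.49 RPKM (log2 change -0.59 ± 0.10, adjusted p = 0.00033) and Cct5 from 106 ± 11.5 to 73.3 ± 1.54 RPKM. Of 43 proteasome genes 26 were lower and 2 higher (median -0.36), and the assembly chaperone genes Psmg4, Psmg1 and Psmg2 fell by 1.03 ± 0.14, 0.73 ± 0.08 and 0.68 ± 0.09. Lysosomal genes went the other way, with 31 of 49 higher and 6 lower (median 0.49). Their share of summed RPKM was 0.493, 0.482 and 0.46% at E17.5 and 0.887, 0.82 and 0.87% at P9. Psap, the precursor of the saposins that help degrade sphingolipids, had 263, 243 and 222 RPKM at E17.5 against 545, 479 and 469.6 RPKM at P9 (log2 change 1.03 ± 0.11, adjusted p = 7.36e-06). The protease genes Lgmn, Ctsd and Ctsh went from 98.9 ± 13.6 to 257 ± 14.3 RPKM, from 139 ± 9.92 to 277 ± 22.9 RPKM and from 2.79 ± 0.513 to 30.7 ± 3.31 RPKM, and the membrane protein gene Lamp2 from 73.1 ± 3.96 to 195 ± 3.77 RPKM. Lipa, the acid lipase of the lysosome, was lower (-1.25 ± 0.11). Of 17 genes of the vacuolar proton pump, which acidifies this compartment, 13 were higher and 4 not called (median 0.44). All 17 had a mean of at least 10 RPKM, and Atp6v0b, Atp6v1a and Atp6v1c1 rose by 0.67 ± 0.08, 0.66 ± 0.09 and 0.59 ± 0.08.

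**Figure D3:**
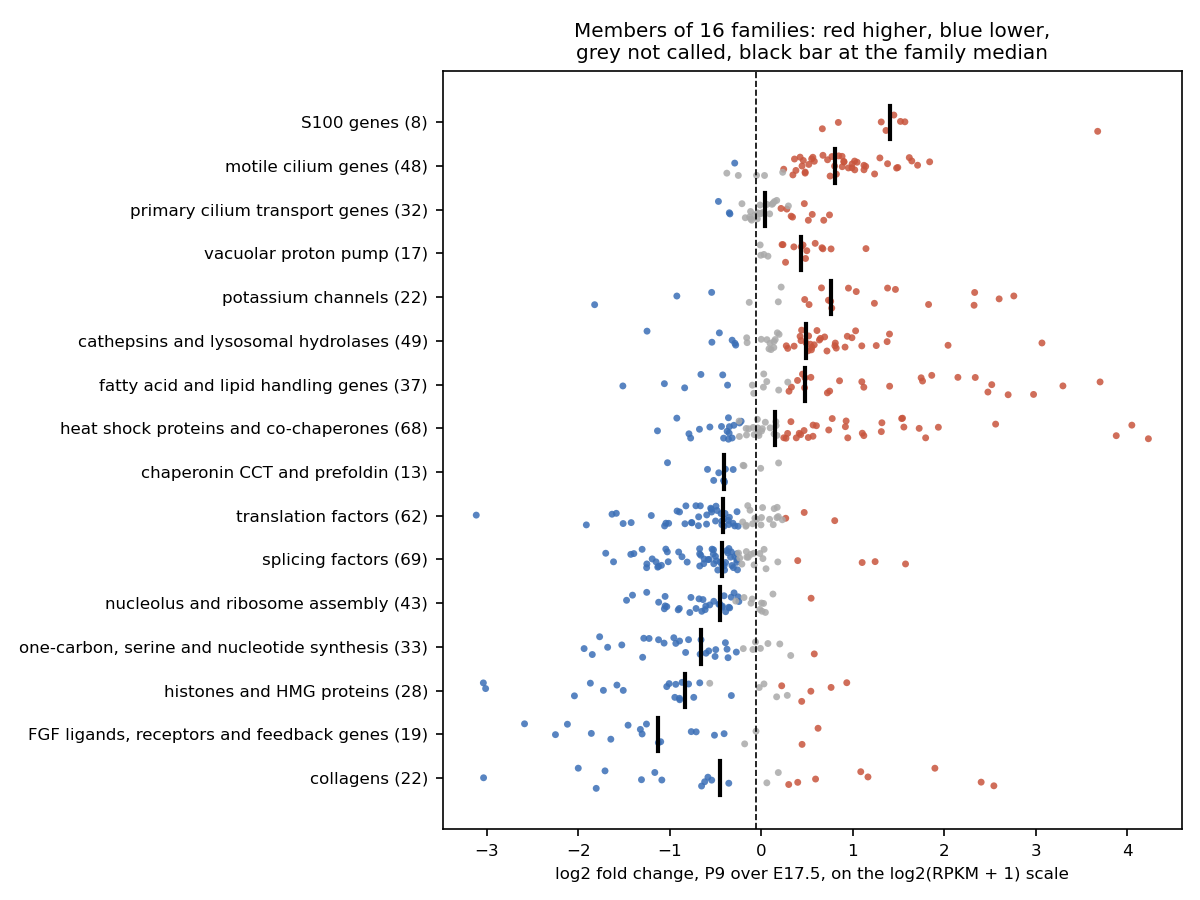
Log2 fold change of P9 over E17.5 on the log2(RPKM + 1) scale (horizontal) for each member of 16 families, red if called higher, blue if called lower and grey if not called, with a black bar at each family's median and a dashed line at the median of all genes. The S100, motile cilium and lysosomal members lie mostly to the right, and those of translation, splicing, nucleotide synthesis and FGF signalling mostly to the left.

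Most measured genes of the motile cilium axoneme, the structure of beating cilia and of the kinocilium, rose. Of 70 listed, 48 were in the table, and 42 of these were called higher at P9 against 1 lower, with a median log2 fold change of 0.81. Among the 38 whose mean reached 10 RPKM, 32 were higher and 1 lower. Their share of summed RPKM was 0.20, 0.215 and 0.207% in the E17.5 libraries and 0.404, 0.388 and 0.369% in the P9 libraries. Ccdc65, a subunit of the regulator that links doublet microtubules, had 19.4, 20.4 and 18.1 RPKM at E17.5 against 75.4, 72.5 and 67.4 RPKM at P9 (log2 change 1.84 ± 0.08, adjusted p = 4.85e-09). Rsph1, a protein of the radial spoke head, had 8.61, 8.79 and 8.42 RPKM at E17.5 against 33.6, 30.7 and 27.3 RPKM at P9. All 3 P9 libraries were above all E17.5 libraries for both. The promoter examples shown above were all of genes that rose, and they leave out Tekt2, which has GTTGCC too and was called lower. Of the examples, 1110017D15Rik went from 37.7 ± 2.02 to 118 ± 12.8 RPKM, Fam183b from 25.2 ± 4.37 to 63 ± 5.67 RPKM and Tekt1 from 29.9 ± 0.988 to 60.6 ± 6.19 RPKM. Outer dynein arm genes were among the gains, with Dnahc11, Dnahc9 and Dnaic1 rising by 1.48 ± 0.12, 1.12 ± 0.12 and 1.65 ± 0.12. Foxj1, the master regulator of motile cilia, went from 52.7 ± 4.66 to 84.6 ± 6.76 RPKM (log2 change 0.68 ± 0.10, adjusted p = 8.42e-05). The member called lower was another tektin gene, Tekt2, from 83.3 ± 6.01 to 68 ± 4.18 RPKM (log2 change -0.29 ± 0.12, adjusted p = 0.0434), a call lost under both rescalings of the libraries (by their median ratio over genes, and to an equal sum without mitochondrially encoded genes) and without any 1 of 5 of the 6 libraries, P9 replicate 2 being the exception.

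Genes of intraflagellar transport and the ciliary gate, which every primary cilium needs, changed less. Of 32 measured, 9 were higher, 3 lower and 20 not called (median 0.04). The share that was higher was thus near the background. Bbs4, of the complex that carries membrane proteins into cilia, and Ift74 rose by 0.75 ± 0.08 and 0.68 ± 0.09. Whether the motile and primary lists differ was not tested. Kinesin and dynein genes, 51 in all and overlapping the motile list, were higher in 26 and lower in 8 cases. The mitotic kinesin genes fell most, with Kif23 going from 6.98 ± 0.226 to 0.30 ± 0.0277 RPKM and Kif22 from 5.97 ± 1.13 to 0.293 ± 0.11 RPKM.

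The cytoskeleton changed by isotype. Among tubulins, Tubb2b and Tubb5, forms of growing neurons and dividing cells, went from 135 ± 15.8 to 29 ± 10.1 RPKM and from 139.9 ± 13.8 to 49.4 ± 2.09 RPKM. Tubb4b, the main beta tubulin of cilia, had 101, 117 and 101 RPKM at E17.5 against 292, 245 and 185 RPKM at P9 (log2 change 1.15 ± 0.15, adjusted p = 3.03e-05), with no overlap. In all, 6 of 11 tubulin genes were lower and 2 higher. Of 6 actin and tropomyosin genes, 5 were lower and 1, Tpm3 (0.69 ± 0.11), was higher, and their share of summed RPKM was 1.06, 1.1 and 1.1% at E17.5 and 0.613, 0.579 and 0.494% at P9. Tpm1 went from 313 ± 10.6 to 130.4 ± 2.64 RPKM. Reads of tubulin and actin genes are uncertain, since members are alike in sequence. Myosins were even, with 8 higher and 8 lower of 25, and with 8 higher and 7 lower both under scaling by the median ratio and without mitochondrially encoded genes. Non-muscle myosin heavy chain genes Myh10 and Myh9 fell by 1.46 ± 0.08 and 0.78 ± 0.09. The myosins of hair bundles and their adaptation machinery were among the gains, with Myo7a, Myo3b and Myo1c rising by 0.65 ± 0.12, 1.10 ± 0.11 and 1.15 ± 0.09. Myo6, a minus-end directed motor at the base of the bundle, went from 148 ± 10.7 to 123 ± 9.26 RPKM (adjusted p = 0.0366), a call lost under both rescalings and on leaving out E17.5 replicate 1 or 2 or P9 replicate 2 or 3.

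Most measured genes of calcium-binding proteins were higher at P9. All 8 measured S100 genes were called higher, with a median of 1.41, as were the 6 whose mean reached 10 RPKM. Their share of summed RPKM was 0.315, 0.323 and 0.296% at E17.5 and 0.862, 0.702 and 0.775% at P9. S100a16 had 6.67, 6.07 and 5.93 RPKM in the E17.5 libraries against 103, 79 and 93.7 RPKM in the P9 libraries (log2 change 3.68 ± 0.13, adjusted p = 8.81e-10), and S100a10, a partner of annexin A2, went from 106 ± 17.5 to 306 ± 45.3 RPKM. S100b, which is also a marker of Schwann cells and of supporting cells, went from 43.5 ± 6.19 to 132 ± 28.1 RPKM. Of 8 annexins, which bind membranes in the presence of calcium, 7 were higher and 1 lower. Anxa5 and Anxa2 went from 289 ± 23.2 to 511 ± 11.7 RPKM and from 218 ± 24 to 388 ± 56.9 RPKM, and Anxa7 from 15.4 ± 2.43 to 67.6 ± 10.8 RPKM. Anxa4, a marker of type II hair cells and supporting cells, was the member that fell, from 76.3 ± 3.27 to 37.1 ± 4.31 RPKM (log2 change -1.03 ± 0.11, adjusted p = 8.81e-06).

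EF-hand buffers and calmodulin-related genes were higher in 16 of 24 cases and lower in 4 (median 0.54). Cib3, a calcium- and integrin-binding protein of the vestibular transduction complex, had 18.3, 14.9 and 13.5 RPKM at E17.5 against 179, 179.5 and 128 RPKM at P9 (log2 change 3.30 ± 0.14, adjusted p = 3.32e-09). Every P9 library was above every E17.5 library, and the P9 mean was 10.4 times the fetal mean. Calm2, an abundant calmodulin gene, went from 641 ± 40.6 to 983 ± 103 RPKM (log2 fold change 0.61 ± 0.12), while Calm3 had a log2 fold change of 0.0 ± 0.10 and was not called. Calb2, the buffer calretinin, went from 23.8 ± 2.07 to 77.5 ± 6.5 RPKM, and Ocm, oncomodulin of striolar hair cells, from 70.1 ± 8.27 to 122 ± 8.7 RPKM. Efhd1, a mitochondrial calcium sensor, fell from 43.2 ± 4.92 to 15.9 ± 3.11 RPKM.

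Genes of pumps, channels and transporters were more often called higher than lower at P9. Atp1b1 and Atp1b2, which encode beta subunits of the sodium-potassium pump, rose by 2.12 ± 0.10 and 2.43 ± 0.09, and the exons of Atp1b1 are partly covered by Nme7 on the other strand. Fxyd3, a small regulator of the pump, had 18.8, 15.5 and 11.4 RPKM at E17.5 against 240.0, 273 and 253 RPKM at P9 (log2 change 4.0 ± 0.15, adjusted p = 1.5e-09), without overlap and at 16.7 times the fetal mean. Fxyd1 went from 26.1 ± 5.21 to 92 ± 8.84 RPKM, whereas Fxyd6 fell from 5.91 ± 1.0 to 2.09 ± 0.488 RPKM. Atp2b2, the calcium pump of the hair bundle, went from 12.2 ± 0.11 to 45.2 ± 4.14 RPKM. Of 14 genes of these P-type pumps 8 were higher and 3 lower, and their share of summed RPKM was 0.205, 0.21 and 0.20% at E17.5 and 0.58, 0.559 and 0.558% at P9.

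Potassium channel genes were higher in 16 of 22 cases and lower in 3 (median 0.77), and 7 had a mean of at least 10 RPKM, with 5 higher and 1 lower. Kcna10, a hair cell channel, had 24.1, 27.2 and 22.5 RPKM at E17.5 against 114, 126 and 146 RPKM at P9. Kcnj16, an inward rectifier that pairs with Kcnj10, went from 1.48 ± 0.332 to 15.8 ± 2.21 RPKM, and Kcnj10 from 6.17 ± 0.65 to 16 ± 2.32 RPKM. Kcnmb2 and Kcnmb4, accessory subunits of the large-conductance calcium-activated channel, fell from 7.85 ± 0.72 to 1.55 ± 0.591 RPKM and from 5.09 ± 0.303 to 2.25 ± 0.634 RPKM, while its pore gene Kcnma1 rose from 4.41 ± 0.243 to 9.48 ± 0.432 RPKM. Aquaporins and carbonic anhydrases were higher in 7 of 8 cases and not called in 1. Car3 had 9.37, 7.23 and 7.46 RPKM at E17.5 against 75.6, 63.1 and 69.3 RPKM at P9 (log2 change 2.97 ± 0.16, adjusted p = 2.19e-08), and Car2, which supplies bicarbonate, went from 6.1 ± 0.663 to 30.6 ± 0.98 RPKM. Aqp4, the water channel of supporting cells, went from 0.935 ± 0.0948 to 5.49 ± 0.592 RPKM.

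The 128 solute carriers included 64 that were higher and 25 that were lower (median 0.27). Slc2a1, the glucose transporter GLUT1, had 45.3, 62.6 and 61.9 RPKM at E17.5 against 158, 155 and 117 RPKM at P9 (log2 change 1.33 ± 0.19, adjusted p = 7.41e-05). Slc6a14, a broad amino acid transporter, went from 13.6 ± 1.04 to 84.2 ± 5.75 RPKM. Slc7a5, a carrier of large neutral amino acids, fell from 16.1 ± 1.3 to 6.07 ± 1.38 RPKM and the glycine transporter gene Slc6a9 from 7.91 ± 0.804 to 2.23 ± 0.426 RPKM. Over all 20 amino acid and glucose transporters, 9 were higher and 4 lower. In mitochondria, the ADP/ATP carrier gene Slc25a5 went from 174 ± 12.4 to 75.3 ± 7.27 RPKM and its paralog Slc25a4 from 85.1 ± 5.2 to 127 ± 15.3 RPKM, in opposite directions. Among chloride channel genes, 12 of 22 were higher and 5 lower. Members with a mean of at least 10 RPKM were close to even, 5 against 4. Mcoln3, a cation channel of hair cells, rose from 24.1 ± 1.77 to 83.2 ± 3.97 RPKM, and Fam38a, the mechanosensitive channel PIEZO1, from 5.1 ± 1.74 to 13.5 ± 1.24 RPKM.

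Genes of metal binding, redox defence and heat shock were among the largest gains. The metallothionein genes Mt1, Mt2 and Mt3 were all higher. Mt1 had 1.53, 2.28 and 1.35 RPKM in the E17.5 libraries against 61.6, 76.9 and 63.7 RPKM in the P9 libraries, and Mt2 had 0.173, 0.53 and 0.401 RPKM and 55.1, 76.2 and 45.1 RPKM. Both lay below 5 RPKM throughout E17.5, so they are in the table because of later libraries. Gpx2, the epithelial glutathione peroxidase, had 35.1, 3.06 and 13.2 RPKM at E17.5 against 492, 338 and 246 RPKM at P9 (log2 change 4.76 ± 0.57, adjusted p = 1.76e-05). Replicate 1 was the highest of the E17.5 libraries and of the P9 libraries, and every E17.5 library was below every P9 library. Srxn1, which repairs peroxiredoxins, had 44.4, 164 and 127 RPKM at E17.5 against 613, 452 and 277 RPKM at P9 (log2 change 2.11 ± 0.41, adjusted p = 0.000653), and Gpx4, which reduces lipid peroxides, went from 172 ± 17.4 to 324 ± 43.5 RPKM. As a family the glutathione and peroxide enzymes were less one-sided, with 25 of 55 higher and 16 lower (median 0.06). Glrx3, an iron-sulfur cluster chaperone, fell from 43.6 ± 3.22 to 17.2 ± 0.0921 RPKM.

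Heat shock proteins and their co-chaperones were higher in 31 of 68 cases and lower in 17 (median 0.15). Stress-inducible members had the largest gains. Hspb1, the small heat shock protein HSP27, had 15, 17 and 12.1 RPKM at E17.5 against 223, 199 and 268 RPKM at P9 (log2 change 3.88 ± 0.20, adjusted p = 1.45e-08). Hspa1b, an inducible Hsp70 gene, had 4.47, 3.81 and 2.93 RPKM at E17.5 against 126, 69.2 and 75.9 RPKM at P9, and its near-identical copy Hspa1a went from 1.93 ± 0.667 to 49.1 ± 20.1 RPKM. Reads of this pair are uncertain, and the ages did not overlap for either. Hsph1, Bag3 and Dnajb1, co-chaperones of Hsp70, went from 31.5 ± 3.21 to 112 ± 9.32 RPKM, from 23.6 ± 4.74 to 81.4 ± 22 RPKM and from 14.3 ± 1.11 to 45 ± 12.6 RPKM. The inducible Hsp90 gene Hsp90aa1 went from 255 ± 21.7 to 549.6 ± 27.5 RPKM, in contrast to Hsp90ab1, which was not called. Hspa8, the constitutive Hsp70 and the fourth most abundant nuclear gene at P9, went from 913 ± 101 to 1566 ± 204 RPKM.

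In the endoplasmic reticulum, 12 of 31 folding genes were lower and 6 higher. The share that was lower, 38.7%, was near the 36.5% of all genes. Among the 27 whose mean reached 10 RPKM, 10 were lower and 7 higher. Pdia6 and P4hb, protein disulfide isomerases, went from 208 ± 12.2 to 132 ± 5.01 RPKM and from 235 ± 11.2 to 156 ± 6.93 RPKM, while Xbp1, the transcription factor of the unfolded protein response, went from 53.8 ± 5.85 to 89.2 ± 4.33 RPKM. Hsp90b1, the Hsp90 of this compartment, went from 550.0 ± 62.6 to 429.7 ± 11.2 RPKM, a call that was lost without E17.5 replicate 2, P9 replicate 2 or P9 replicate 3. Its log2 fold change was above 0 after quantile normalization. So was that of Hspa5, which was called higher under that scaling but was not called on the values as deposited.

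Lipid genes were mostly higher. Of 37 genes of fatty acid and lipid handling, 24 were higher and 6 lower (median 0.48), and their share of summed RPKM was 0.298, 0.297 and 0.286% at E17.5 and 0.657, 0.608 and 0.63% at P9. Apoe had 71.2, 71.6 and 48.4 RPKM at E17.5 against 521, 502 and 480.3 RPKM at P9 (log2 change 2.98 ± 0.16, adjusted p = 2.66e-08), and Apod, a lipocalin, had 21.2, 22.1 and 18.4 RPKM and 299, 274 and 267 RPKM (log2 change 3.70 ± 0.12, adjusted p = 7.15e-10). No P9 library of either overlapped E17.5. Ptgds, prostaglandin D synthase, went from 24.2 ± 3.39 to 141 ± 29.2 RPKM, and Acsl1, which activates long-chain fatty acids, from 5.7 ± 0.226 to 37.5 ± 2.77 RPKM. Fabp5 and Crabp2, carriers of fatty acids and retinoic acid, fell from 23.5 ± 1.22 to 7.65 ± 1.29 RPKM and from 62.1 ± 3.81 to 29.4 ± 2.48 RPKM.

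Cholesterol genes were more often higher than lower. Of 26 measured, 12 were higher, 4 lower and 10 not called (median 0.42). Fdft1, which makes squalene, and Hsd17b7, a later step, rose from 23.3 ± 2.0 to 57.3 ± 15.2 RPKM and from 27.8 ± 1.89 to 72.9 ± 14.5 RPKM. P9 replicate 1 held the largest share of summed RPKM in this family, the P9 libraries being at 0.278, 0.216 and 0.19% against 0.139, 0.145 and 0.152% at E17.5.

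Genes of energy metabolism moved in both directions. Glycolysis genes were higher in 11 of 25 cases and lower in 5. Eno2, the neuronal enolase, had 18, 20.7 and 19.2 RPKM at E17.5 against 70.9, 81.5 and 74.1 RPKM at P9 (log2 change 1.91 ± 0.09, adjusted p = 1.08e-08), while Eno1, the ubiquitous form, had 141 ± 22.2 RPKM at E17.5 against 129.9 ± 3.42 RPKM at P9 and was not called. Hk1, the main hexokinase of neural tissue, went from 17.8 ± 2.15 to 51.7 ± 1.95 RPKM, and Pkm, pyruvate kinase, fell from 408 ± 37.6 to 273 ± 34.4 RPKM, a call not held after quantile normalization. Genes of the tricarboxylic acid cycle and fatty acid oxidation numbered 49, with 11 higher and 15 lower, and those whose mean reached 10 RPKM were close to even, 11 against 10 of 38. Pdk4, which holds back pyruvate entry into that cycle, rose from 27.7 ± 0.394 to 111 ± 44.2 RPKM. Mitochondrial ribosomal protein genes were lower in 39 of 74 cases and higher in 10, with Mrps6 among the latter (1.22 ± 0.10). Among the 48 whose mean reached 10 RPKM, 18 were lower and 9 higher (median -0.19). Over all genes with such a mean, 35.3% were lower and 31.3% higher.

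Within families of extracellular matrix genes, some members fell and others rose. With 67.4% of all genes called, calls in both directions within a family are common. Col2a1, the fibrillar collagen of cartilage and of the otic matrix, had 274, 235 and 253 RPKM at E17.5 against 34.3, 34.5 and 23 RPKM at P9 (log2 change -3.03 ± 0.14, adjusted p = 8.08e-09). In the basement membrane, Col4a1 had 53.2, 47.6 and 43.4 RPKM at E17.5 against 10.7, 11.4 and 11.6 RPKM at P9, and Col4a2 went from 27.4 ± 2.45 to 10.4 ± 0.242 RPKM. Col4a3 and Col4a4, which form the mature collagen IV network of kidney and ear, went the other way. Col4a3 had 0.0734, 0.0669 and 0.155 RPKM at E17.5 against 5.86, 5.67 and 4.73 RPKM at P9, and Col4a4 had 0.219, 0.157 and 0.153 RPKM and 5.75, 5.53 and 4.47 RPKM. Both were below 5 RPKM throughout E17.5, and no P9 library overlapped. Col4a1 and Col4a2 have exons on opposite strands that overlap by 22 bases. Col11a2 and Col9a2, the most abundant collagen genes at P9, belong to the fibrils of extracellular membranes and cartilage, and Col11a2 rose from 109 ± 12.4 to 247 ± 27.8 RPKM while Col9a2 had 368 ± 47.4 RPKM at E17.5 against 384 ± 41.9 RPKM at P9 and was not called, except as higher after quantile normalization. Over 22 collagens, 12 were lower and 8 higher, and their share of summed RPKM was 0.405, 0.345 and 0.374% at E17.5 and 0.349, 0.344 and 0.318% at P9.

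Laminins also moved in both directions, with Lamb1 and Lama4 falling from 28.7 ± 3.26 to 6.55 ± 0.461 RPKM and from 6.17 ± 0.329 to 1.15 ± 0.184 RPKM. Lamb2, the beta chain that replaces Lamb1 in mature basement membranes, rose from 17.9 ± 0.155 to 40.1 ± 0.928 RPKM. Elastic fibre genes were lower in 8 of 16 cases and higher in 4. Mfap2, a microfibril protein, had 326, 277 and 251 RPKM at E17.5 against 26.6, 28.8 and 22.3 RPKM at P9 (log2 change -3.41 ± 0.13, adjusted p = 1.55e-09), and Fbn2, the fetal fibrillin, went from 41.8 ± 1.55 to 4.59 ± 0.512 RPKM. Fbln2 rose from 3.41 ± 0.169 to 32.1 ± 1.85 RPKM and Fbln1 fell from 21.8 ± 1.5 to 0.863 ± 0.134 RPKM. Of the small proteoglycans, Dcn and Lum fell by 2.28 ± 0.11 and 2.61 ± 0.18, and Bgn rose from 3.03 ± 0.397 to 35.3 ± 4.39 RPKM. Timp1, an inhibitor of matrix proteases, rose from 4.14 ± 0.68 to 35.3 ± 3.41 RPKM, and Timp3 from 38.9 ± 2.47 to 105 ± 14.3 RPKM. Among 11 integrins, Itga6 and Itga8 fell from 135 ± 5.14 to 20.5 ± 2.97 RPKM and from 31 ± 0.175 to 3.4 ± 0.554 RPKM, while Itga3 and Itgav rose from 15.9 ± 0.577 to 52 ± 0.396 RPKM and from 14.2 ± 0.726 to 46.3 ± 5.26 RPKM. Dcn, Lum and Fbln1 are also counted among the markers of mesenchyme, whose summed level is given below.

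**Figure D4:**
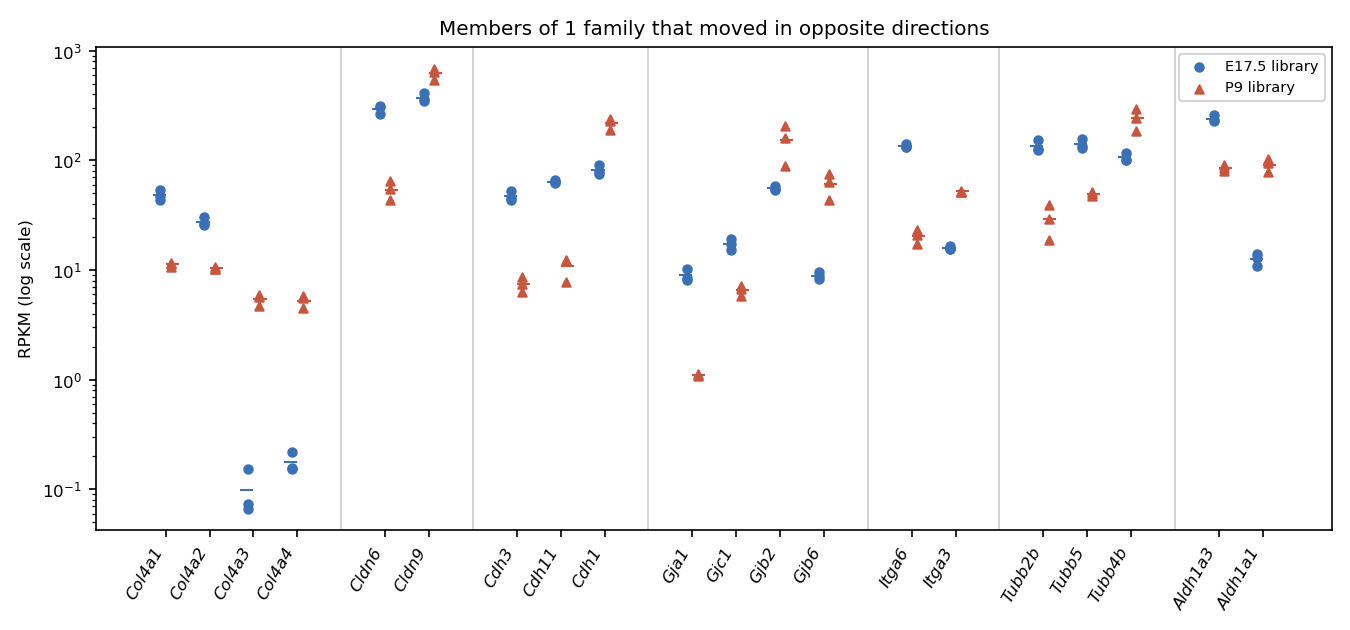
RPKM on a log scale in each E17.5 library (blue circles) and each P9 library (red triangles), with short bars for the means, of collagen IV, claudin, cadherin, connexin, integrin, tubulin and retinaldehyde dehydrogenase genes. The 20 genes were picked to show members of each family that lie lower and others that lie higher at P9, and the ages overlap in none of them.

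Among genes of cell junctions, some fell and others rose. Cldn6, a claudin of embryonic epithelia, had 309, 314 and 266 RPKM at E17.5 against 54.7, 43.2 and 64.4 RPKM at P9 (log2 change -2.45 ± 0.14, adjusted p = 4.48e-08). Cldn9, a claudin of the inner ear needed for its ion barrier, was the most abundant at P9, with 407, 364 and 344 RPKM at E17.5 against 680.0, 536 and 641 RPKM at P9 (log2 change 0.73 ± 0.13, adjusted p = 0.000371). Cldn4 fell by 0.57 ± 0.17 and Cldn7 rose by 0.51 ± 0.14, the call for Cldn4 being lost after quantile normalization and without E17.5 replicate 2. Over 12 claudins 6 were higher and 5 lower (median 0.25), but of the 9 whose mean reached 10 RPKM 3 were higher and 5 lower (median -0.44). Desmosome genes were higher in 6 of 8 cases and not called in 2. Ppl, which encodes periplakin, went from 3.78 ± 0.595 to 27.6 ± 4.63 RPKM, Perp from 20.2 ± 2.81 to 61.4 ± 6.08 RPKM and Jup, plakoglobin, from 62.9 ± 6.27 to 119 ± 20.9 RPKM.

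Classical cadherins moved in both directions as well. Cdh1, the E-cadherin of mature epithelial junctions, had 77.8, 91.3 and 75.1 RPKM at E17.5 against 237, 189 and 227 RPKM at P9 (log2 change 1.41 ± 0.11, adjusted p = 6.87e-07). Cdh3, Cdh11, Cdh4 and Cdh2 fell by 2.52 ± 0.11, 2.49 ± 0.14, 1.63 ± 0.08 and 1.43 ± 0.19. Over 20 cadherins and protocadherins 7 were higher and 9 lower, and 8 in each direction when mitochondrially encoded genes were left out of the scaling. Of the connexins, Gjb2 and Gjb6, which form the gap junctions of supporting cells, rose from 55.7 ± 2.73 to 152 ± 60.1 RPKM and from 8.83 ± 0.683 to 60.5 ± 15.8 RPKM. Gja1, connexin 43, fell from 8.94 ± 1.09 to 1.1 ± 0.0302 RPKM and Gjc1 from 17.1 ± 1.91 to 6.6 ± 0.684 RPKM.

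Genes of the fibroblast growth factor (FGF) pathway were more often lower than higher at P9. Of 19 FGF ligands, receptors and feedback genes, 15 were lower and 2 higher (median -1.12). Among ligands, Fgf8 had 30.3, 24.2 and 23.4 RPKM at E17.5 against 3.14, 4.27 and 3.09 RPKM at P9 (log2 change -2.59 ± 0.13, adjusted p = 1.57e-08), and Fgf3 and Fgf10, which act in otic induction and patterning, fell by 2.12 ± 0.11 and 0.76 ± 0.09. Targets and feedback inhibitors were lower too. Etv5, a transcription factor switched on by FGF signals, had 75.4, 82.9 and 74.6 RPKM at E17.5 against 18.2, 15.3 and 13.5 RPKM at P9, and Etv4, Dusp6, Spry2 and Spry1 fell by 1.86 ± 0.13, 1.45 ± 0.28, 1.30 ± 0.14 and 1.10 ± 0.11. The ages did not overlap for Fgf8 or Etv5. Of the receptors, Fgfr1 rose from 62.3 ± 2.65 to 96.6 ± 7.53 RPKM and Fgfr2 had 14.4 ± 0.90 RPKM at E17.5 against 13.8 ± 0.913 RPKM at P9 and was not called.

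In the hedgehog pathway 6 of 9 genes were lower and 3 not called, with Gli3, a transcriptional effector, and Smo, the signal transducer, going from 6.9 ± 0.204 to 1.68 ± 0.549 RPKM and from 27.6 ± 2.49 to 13.5 ± 0.579 RPKM. Eph receptors and ephrins were lower in 8 of 15 cases, Ephb1 and Ephb2 among them (-1.45 ± 0.11 and -1.45 ± 0.12), and higher in 3. TGF-beta and BMP genes were divided, 13 higher and 16 lower of 35, and 14 in each direction under both rescalings of the libraries. Among their ligands Tgfb2 fell from 103 ± 7.66 to 29.3 ± 2.43 RPKM, while Bmp6 had 1.95, 1.63 and 1.23 RPKM at E17.5 against 38.9, 32.1 and 34 RPKM at P9 (log2 change 3.79 ± 0.13, adjusted p = 8.11e-10) and Bmp2 went from 1.23 ± 0.337 to 13.6 ± 0.773 RPKM. Exons of Bmp6 overlap those of Txndc5 on the opposite strand, which fell. The ligand trap gene Fst, follistatin, fell from 7.36 ± 0.755 to 0.122 ± 0.072 RPKM.

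Insulin-like growth factor genes fell at a ligand, a receptor and an RNA-binding regulator and rose at some binding proteins. Igf2, a fetal growth factor, went from 23.4 ± 3.05 to 3.08 ± 0.354 RPKM, Igf2bp1 from 8.94 ± 0.907 to 0.649 ± 0.0872 RPKM and the receptor gene Igf1r from 20.9 ± 0.255 to 14.6 ± 2.21 RPKM. Igfbp3, the most abundant binding protein gene, had 304, 326 and 324 RPKM at E17.5 against 693, 523 and 558 RPKM at P9 (log2 change 0.88 ± 0.13, adjusted p = 6.84e-05), and Igfbp6 went from 0.381 ± 0.184 to 37.9 ± 4.05 RPKM. Of the enzymes that make retinoic acid, Aldh1a3 went from 240.4 ± 14.7 to 85.2 ± 4.7 RPKM, whereas Aldh1a1 had 12.9, 14 and 10.9 RPKM at E17.5 against 102, 94.4 and 77.7 RPKM at P9 (log2 change 2.76 ± 0.15, adjusted p = 1.91e-08). At P9 the means of Aldh1a3 and Aldh1a1 were 85.2 and 91.5 RPKM. Axon guidance genes were mixed, with 16 of 31 higher and 9 lower. Sema5b fell from 9.32 ± 0.881 to 0.214 ± 0.0506 RPKM and Ntn4, a netrin of basement membranes, rose from 0.37 ± 0.0549 to 25.7 ± 3.71 RPKM.

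Nuclear receptor and clock genes were more often higher than lower at P9. Of 21 nuclear receptor genes 13 were higher and 3 lower (median 0.59). Nr1d1, the clock repressor REV-ERB alpha, had 4.11, 3.47 and 3.36 RPKM at E17.5 against 60.1, 40.1 and 47.8 RPKM at P9 (log2 change 3.42 ± 0.15, adjusted p = 3.84e-09). Its exons overlap those of Thra, the thyroid hormone receptor alpha, on the opposite strand, and Thra went from 23.5 ± 1.64 to 35.8 ± 2.42 RPKM. Nr3c1, the glucocorticoid receptor, went from 4.19 ± 0.139 to 7.36 ± 0.471 RPKM, and the retinoic acid receptor gene Rarg from 13.6 ± 1.35 to 31.1 ± 4.48 RPKM. Of 20 clock genes 11 were higher and 1 lower. Dbp, an output factor of the clock, had 2.06, 1.17 and 1.13 RPKM at E17.5 against 13.4, 12.3 and 13.2 RPKM at P9, and Per3 and Tef rose by 1.44 ± 0.12 and 1.09 ± 0.09. The core genes Per1, Per2, Cry1 and Arntl had log2 fold changes of -0.20 ± 0.09, -0.20 ± 0.20, 0.14 ± 0.12 and 0.21 ± 0.09 and were not called. Under each of the 3 other scalings (both rescalings and quantile normalization) Arntl was called higher, as it was without E17.5 replicate 1 or P9 replicate 3, and Per1 and Per2 were called lower without E17.5 replicate 1 and without P9 replicate 1. The labels give no time of day for the dissections. Known targets of glucocorticoids were higher in 14 of 22 cases and lower in 3. Sgk1, a kinase that raises sodium transport, went from 38.4 ± 6.57 to 101 ± 20.9 RPKM, whereas Fkbp5, a classical target, fell from 5.35 ± 0.336 to 0.986 ± 0.116 RPKM (log2 change -1.68 ± 0.12, adjusted p = 1.82e-07).

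Immediate early genes, which respond within minutes to growth factors or stress, were lower in 21 of 36 cases and higher in 9. Jun, Atf3 and Myc fell from 164 ± 19.1 to 66 ± 23.9 RPKM, from 84 ± 11.4 to 28.2 ± 12.1 RPKM and from 38.5 ± 6.35 to 11.6 ± 6.15 RPKM. Fos and Egr1 went the other way, from 26.5 ± 1.56 to 72.7 ± 23.7 RPKM and from 19.9 ± 3.83 to 40.6 ± 9.94 RPKM. Klf and Sp factors were lower in 10 of 15 cases and higher in 2, the exceptions being Klf9, a target of glucocorticoid and thyroid hormones, from 11.1 ± 0.949 to 32.9 ± 8.22 RPKM, and Klf3 (0.28 ± 0.10), whose call was lost without E17.5 replicate 2 or 3 or P9 replicate 1 or 3. Among 11 Sox genes 6 were lower and 3 higher, with Sox10, a factor of glia and otic epithelium, from 97.7 ± 9.16 to 142 ± 29.4 RPKM and Sox9 from 38.7 ± 0.907 to 55.8 ± 4.91 RPKM among the latter. Of the long noncoding RNAs, the imprinted transcripts Meg3 and H19 fell from 263 ± 61.7 to 35.9 ± 9.09 RPKM and from 98 ± 16 to 23.5 ± 3.91 RPKM. Malat1, a nuclear RNA, had 206 ± 65 RPKM at E17.5 against 253 ± 25.8 RPKM at P9 and was not called, except as higher without E17.5 replicate 3.

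Genes of secretion and cell communication were more often higher than lower. Of 42 Rab GTPase genes, switches of membrane traffic, 21 were higher and 4 lower (median 0.24). Rab13, which acts at epithelial junctions, went from 6.25 ± 0.736 to 19.2 ± 0.844 RPKM, and Rab3b, a vesicle Rab, fell from 26.4 ± 2.33 to 8.16 ± 0.693 RPKM. Tetraspanins, membrane organisers, were higher in 10 of 19 cases, with Cd9 going from 156 ± 7.97 to 499.9 ± 22.2 RPKM (log2 change 1.68 ± 0.11, adjusted p = 1.2e-07) and Cd82 from 39.4 ± 3.62 to 117 ± 11 RPKM, and lower in 3. Of 32 chemokine and cytokine receptor genes, 17 were higher and 6 lower (median 0.48). Tnfrsf1a, the main TNF receptor, had 24.2, 22.5 and 20.9 RPKM at E17.5 against 108, 85.1 and 85.6 RPKM at P9, and Il6st, the shared receptor gp130, went from 37.7 ± 4.52 to 97.9 ± 3.1 RPKM. Cxcl14, a chemokine of epithelia, rose from 59 ± 5.25 to 194 ± 16.3 RPKM.

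Receptors of synapses shifted by subunit. The nicotinic receptor genes Chrna9 and Chrna10, through which efferent nerves act on hair cells, rose from 13.8 ± 0.89 to 42.4 ± 7.68 RPKM and from 12.7 ± 0.629 to 59.7 ± 5.98 RPKM (log2 change 2.14 ± 0.14, adjusted p = 1.21e-07). Chrng, the fetal gamma subunit of the muscle receptor, fell from 28.2 ± 0.812 to 2.13 ± 0.158 RPKM. Among ATP receptors P2rx2 had 13, 12.4 and 13.3 RPKM at E17.5 against 89.2, 72.5 and 66.4 RPKM at P9, and P2rx3 fell from 14.3 ± 1.32 to 2.44 ± 0.166 RPKM. No library of P2rx2 overlapped between ages. Exons of P2rx3 overlap those of Ssrp1 on the opposite strand, which fell. Neurotransmitter receptors were higher in 10 of 16 cases and lower in 4.

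**Figure D5:**
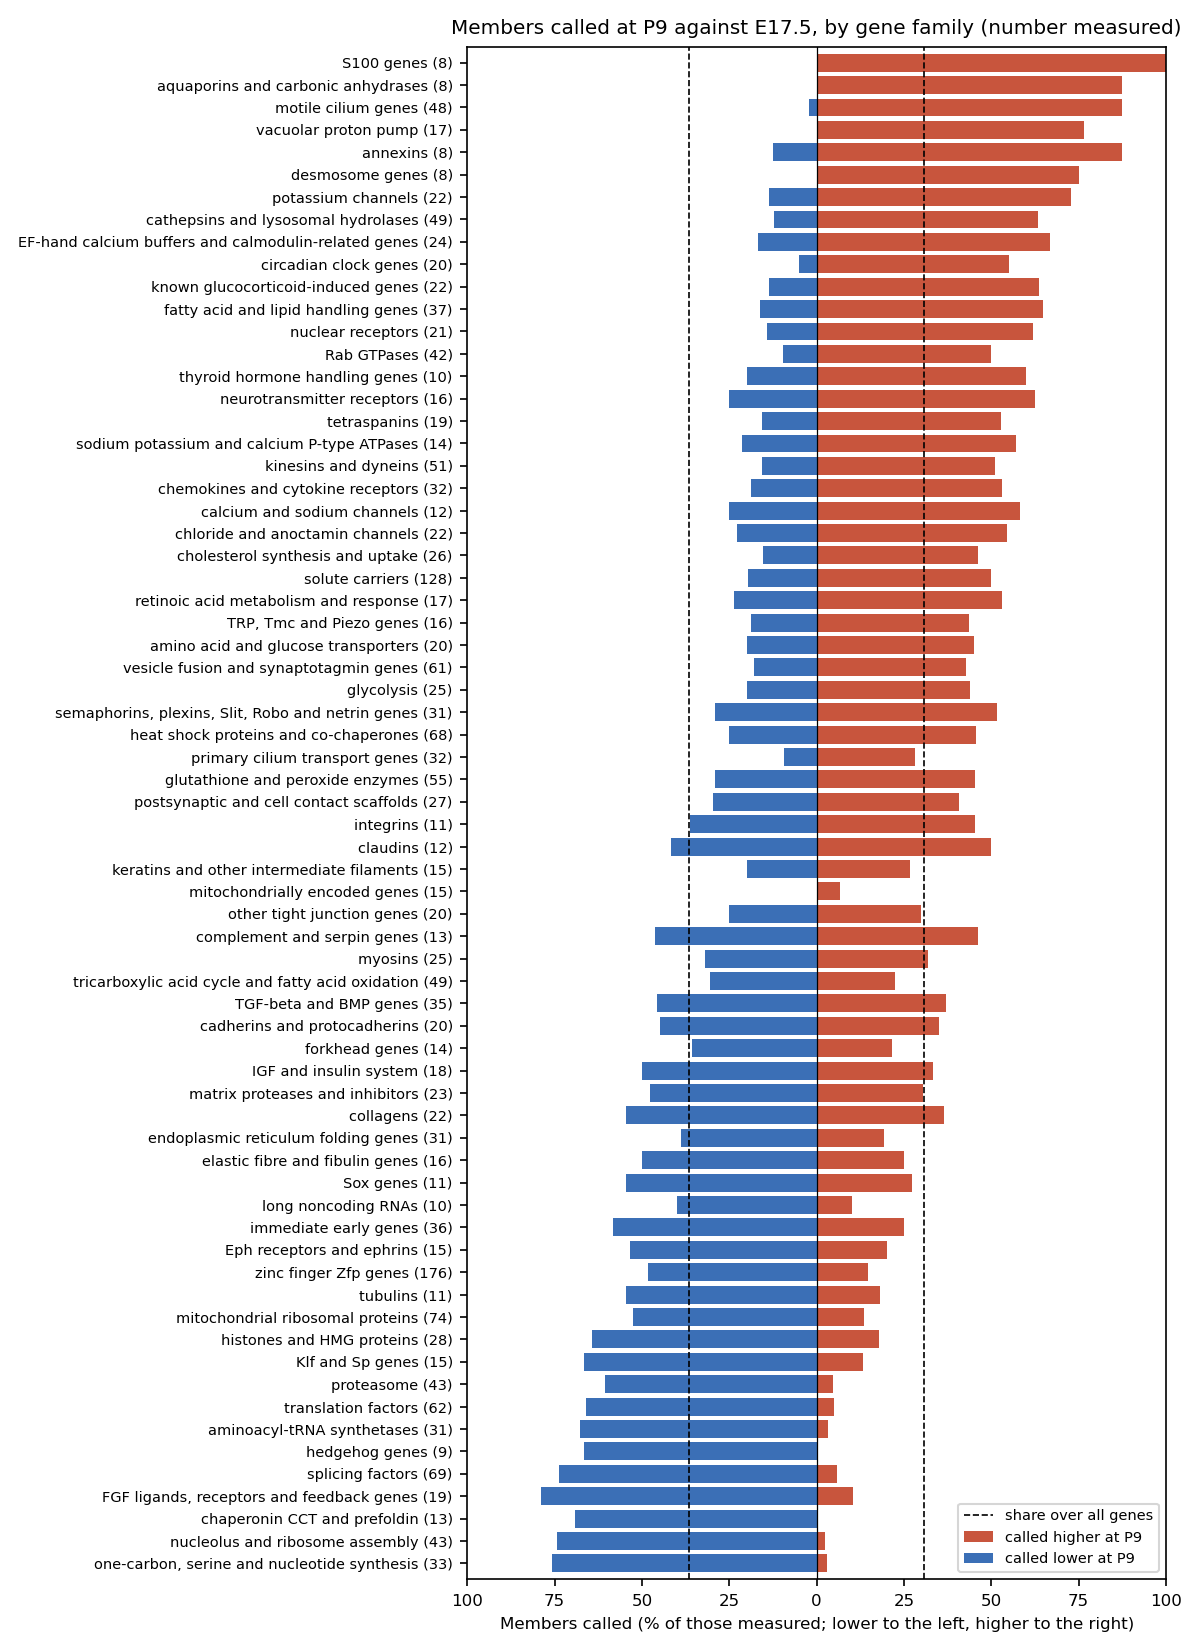
Percentage of measured members called higher (red, to the right) and lower (blue, to the left) at P9 for families with at least 8 measured members, given in parentheses. Dashed lines mark the shares over all genes, 30.8% higher and 36.5% lower. The S100, water and bicarbonate, motile cilium and proton pump families are at the top and nucleotide synthesis, nucleolar, chaperonin and FGF families at the bottom.

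Markers of cell types were measured to set these values beside the make-up of the tissue. RNA came from the whole epithelium, so fewer cells of a type and less RNA per cell cannot be told apart. The defining markers of the labelled tissue were present at both ages, with all 18 listed hair cell markers in the table. Of these 14 were higher and 2 lower, and their summed level was 777 to 832 RPKM at E17.5 and 1331 to 1376 RPKM at P9. Pou4f3, which every hair cell needs, had 85.6 ± 8.28 RPKM at E17.5 against 86.2 ± 2.99 RPKM at P9 and was not called, and Otof, the synaptic calcium sensor otoferlin, went from 175 ± 6.13 to 266 ± 2.48 RPKM. Type I markers summed to 396 to 457 RPKM at E17.5 and 2333 to 2655 RPKM at P9. Spp1 made up 101 RPKM of the E17.5 sum and 2083 RPKM of the P9 sum on average. Of the 9 measured, 7 were higher and 1 lower. Of the type II markers 4 of 6 were higher and 2 lower. Supporting cell markers were split, 8 higher and 10 lower of 20, with a summed level of 1708 to 1922 RPKM at E17.5 and 2759 to 3603 RPKM at P9, the largest contributions at P9 being those of Sparcl1 (900.2 RPKM) and of the otogelin gene Otog (607 RPKM). The balance was not stable, with 8 higher and 7 lower among members whose mean reached 10 RPKM, and 8 higher and 8 lower without P9 replicate 3.

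Markers of other tissues moved with age as well. Those of the roof and other non-sensory epithelium, 7 of 11 listed, summed to 1496 to 1608 RPKM at E17.5 and 256 to 305 RPKM at P9. By member they were even, with 2 higher, 2 lower and 3 not called (median 0.007). Mesenchyme markers in the table numbered 10 of 21 listed, with 8 lower and 1 higher, and summed to 116 to 128 RPKM at E17.5 and 84.9 to 96.8 RPKM at P9. Car3, the member that was higher and one of the carbonic anhydrases above, made up 69.3 RPKM of the P9 sum on average. Dark cell and transitional cell markers, of the potassium-secreting epithelium beside the sensory patch, were higher in 8 of 9 cases and summed to 132 to 138 RPKM at E17.5 and 356 to 409.5 RPKM at P9. Schwann cell markers summed to 229 to 261 RPKM at E17.5 and 384 to 425 RPKM at P9, with 6 of 10 higher. Neuron markers summed to 244 to 266 RPKM at E17.5 and 218 to 236 RPKM at P9, although 5 of 8 were higher and 2 lower (median 0.29). Among the 5 neuron markers whose mean reached 10 RPKM, 2 were higher and 2 lower. Of 17 macrophage and leukocyte markers 1 was in the table, Cd68, which went from 1.83 ± 0.502 to 5.53 ± 1.37 RPKM, and of 12 B cell markers 1, Ighm, with 298, 90.8 and 83.6 RPKM in the P9 libraries against 0.931, 0.355 and 0.162 RPKM at E17.5. None of the 15 endothelial and pericyte markers listed was among the genes of the table. The haemoglobin gene Hba-a1 had 40.1, 17.8 and 29 RPKM at E17.5 against 9.76, 43.2 and 9.48 RPKM at P9, with P9 replicate 2 the highest library, and was called lower without that library and not called with it. The part of any of these cell types in the changes of matrix, ion transport, lipid and cytokine receptor genes was not tested.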

How the data were processed

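The authors deposited RPKM values per gene, in which reads are scaled for gene length and library size. The submitters' processing notes name Partek and the mm8 build, and no source used here gives the aligner, counting or strand settings. The table holds 10102 genes, each at 5 RPKM or more in at least 1 library. The members and gene lists were chosen with earlier results of these data known, some list patterns were tightened after the symbols were seen, and Actb was added to the actins after its values were seen.

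Values were taken as log2(RPKM + 1) and fitted with limma 3.58.1 in R 4.3.3. All 9 libraries entered with 1 mean per age, those of P0 adding to the estimate of spread, and eBayes used an intensity trend. An exact permutation test of 3 against 3 cannot go below 0.1 and was not used. Families were described by counts, medians and shares of summed RPKM, without a set test. Alternatives were other pseudocounts, a minimum mean, 3 other scalings, no trend, the 6 libraries alone, a replicate block and leaving out each library. The numbers of the replicates were not taken as pairs, as same-numbered libraries did not deviate together. With 3 libraries per age this cannot settle whether the numbers mark pairs. Promoters were matched to RefSeq by symbol. Some members of the families are not reported here by name.

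The rule for naming took the 15 most abundant genes at each age and the 15 largest gains and 15 largest losses in RPKM among called genes without overlap. In each family with 5 or more measured members it took the 3 with the smallest p and the 3 with the highest level. The following 82 genes lie outside it and were chosen after their values were seen: AC099934.1, AC157822.1, Arntl, Atf3, Bag3, Calm3, Cdca7l, Cdh2, Chrna9, Col4a2, Col4a4, Crabp2, Cry1, Ctsb, Ctu2, Dnahc11, Dnahc9, Dnaic1, Dnajb1, Efhd1, Egr1, Eif4a1, Enho, Eno1, Etv4, Fabp5, Fam183b, Fam38a, Fbln2, Fdft1, Fgf10, Fgfr2, Fos, Fst, Fxyd1, Fxyd6, Hist2h2aa1, Hist3h2ba, Hsp90aa1, Hsph1, Igf1r, Igf2, Itgav, Jun, Kcnj10, Kcnma1, Kcnmb2, Kcnmb4, Lamb2, Lipa, Lum, Mbnl2, Myc, Myh9, Myo3b, Myo7a, Nme7, Nr3c1, P4hb, Pdia6, Per1, Per2, Per3, Pou4f3, Ptgds, Rarg, Rrm2b, Rrp12, Sgk1, Slc7a5, Sox9, Sphk2, Spry1, Spry2, Ssrp1, Tef, Tekt1, Tlcd1, Tnfrsf1a, Tpm3, Txndc5 and Xbp1.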

Additional observations from a re-analysis of the deposited data

How the results depend on the processing

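The counts of called genes were within 1.5 times the reported ones under the alternatives run, apart from those that left out low genes or raised the pseudocount. With a minimum mean of 10 RPKM, which left 6472 genes to test, 2024 genes were higher and 2286 lower, of which 570 and 419 by at least 2-fold. With a pseudocount of 5, 533 genes were higher and 410 lower by at least 2-fold. Leaving out each library in turn gave 2789 to 3056 higher and 3320 to 3621 lower genes, and 909 to 962 and 740 to 799 by at least 2-fold. The share of calls that were higher was 45.8% on the values as deposited, 50.2% under median ratio scaling and 52.1% without mitochondrially encoded genes, and no scaling moved the median of all genes by more than 0.071. Of the 278 genes named, 261 had the same call under every alternative of the 16 that tested them, 7 lost a call under at least 1 and 9 gained one. Counted apart as reversed were 2 genes, as quantile normalization turned the log2 fold changes of Hsp90b1 to 0.0748 and of Hspa5 to 0.406. Libraries that share a replicate number correlated at -0.136, -0.372 and -0.0264 in their deviations from the age means. Those with different numbers correlated at -0.19 to 0.32. With 3 libraries per age these values cannot settle whether the numbers mark pairs. A replicate block gave 3103 higher and 3692 lower genes. Under the block Tekt2 was the 1 named gene with a call that was no longer called (adjusted p = 0.0575), and 8 myosins were higher and 9 lower. The RPKM table gives no counts, so no counting interval could be set on low values, and folds of genes near 0 at 1 age depend on the pseudocount.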
